A study of Homo sapiens with 6 samples.

Results

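The regions described here are the ATAC-seq peaks that were listed only after 24 h of T3 and lie inside the bodies of protein-coding genes. A peak was taken when it stood in the 24 h list on chromosomes 1 to 22 or X, overlapped no peak of the vehicle list or the 6 h list by at least 50% of the shorter peak, and had its summit (the mean of its 2 replicate summits) inside a RefSeq protein-coding gene and over 1 kb from every boundary of such a gene. This rule gave 21569 peaks, out of 53495 peaks listed only at 24 h, 60299 peaks of the 24 h list on these chromosomes and 80149 peaks in the 3 lists together. The peaks were thus chosen by their measured presence in the lists and by their position, so these are descriptions and carry no test.

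The cells were Nthy-ORI, an immortalised line from normal human thyroid epithelium, and every sample came from this line. All cells, the vehicle samples included, were first kept for 24 h in medium with charcoal-stripped serum, which removes hormones. The 3 groups then had 10 nM of the thyroid hormone T3 (triiodothyronine) for 6 h (2 samples), 10 nM T3 for 24 h (2 samples) or the NaOH vehicle, labelled 6 h (2 samples). Nuclei of 50000 cells were used for each. A 24 h vehicle was not analysed here, so the effect of T3 and that of 24 h in culture cannot be told apart. Whether both samples of a group were separate cultures is not stated, and with 1 joint peak list per group no test between conditions was made.

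ATAC-seq uses the transposase Tn5 to cut and tag accessible DNA, and a peak marks a place where cuts gather. Accessible sites within genes are often enhancers in introns, which act on the host gene or on another gene, or promoters of shorter transcripts and of non-coding RNAs that start inside the gene. The T3 receptors THRA and THRB sit on DNA as partners of RXR proteins, with corepressors in the absence of hormone and with coactivators in its presence, and thyroid follicular cells make the hormone from the protein thyroglobulin (TG).

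The 3 lists differed in length and in make-up before any gene was considered. On chromosomes 1 to 22 and X the vehicle list held 6811 peaks, the 6 h list 12112 and the 24 h list 60299. Summits within 1 kb of a protein-coding gene boundary made up 3.55% of the vehicle list, 14.9% of the 6 h list and 19.1% of the 24 h list. Of all 24 h peaks, 88.7% were absent from the other lists, and of the 24 h peaks inside gene bodies 92.4% were. A peak missing from the shorter lists is therefore only a peak not listed there, and the part of list length and library quality in these counts was not tested. The thyroid factor genes NKX2-1, FOXE1 and HHEX, which are too short to hold many gene-body peaks, each had a 24 h peak at a gene end and none at 6 h or in vehicle; of all protein-coding genes 60.8% had such a 24 h peak.

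Of the gene-body peaks, 891 had a summit inside the 300-base window around a listed transcript start, from 250 bases before it to 50 bases after. Such windows show which DNA letters lay under the peaks, and 8 of them are printed to show the sequence types among them. They are RefSeq sequences of GRCh38.p14, written 5′ to 3′ on the strand of the transcript. Capitals mark matches on either strand to 5 short motifs: AP-1 (TGANTCA), TEAD (GGAATG), the core site of thyroid hormone and related nuclear receptors (AGGTCA, the receptor core), RUNX (TGTGGT) and ETS (CCGGAA). The ETS and TEAD letters can overlap by the 4 letters GGAA. A match is only a match of letters.

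The first pair holds many CpG dinucleotides and ETS letters: the strongest such window, an inner start of MTHFD2L, a mitochondrial folate enzyme (chr4:74157868-74158167, plus strand, 27 CpG), and an inner start of SNX12, a sorting nexin (chrX:71068285-71068584, minus strand, 31 CpG).
MTHFD2L: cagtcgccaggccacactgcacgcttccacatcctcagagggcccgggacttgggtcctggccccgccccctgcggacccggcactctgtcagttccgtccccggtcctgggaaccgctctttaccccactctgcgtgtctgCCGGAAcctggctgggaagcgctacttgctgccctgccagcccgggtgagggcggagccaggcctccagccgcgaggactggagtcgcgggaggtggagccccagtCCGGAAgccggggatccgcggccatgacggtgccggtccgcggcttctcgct
SNX12: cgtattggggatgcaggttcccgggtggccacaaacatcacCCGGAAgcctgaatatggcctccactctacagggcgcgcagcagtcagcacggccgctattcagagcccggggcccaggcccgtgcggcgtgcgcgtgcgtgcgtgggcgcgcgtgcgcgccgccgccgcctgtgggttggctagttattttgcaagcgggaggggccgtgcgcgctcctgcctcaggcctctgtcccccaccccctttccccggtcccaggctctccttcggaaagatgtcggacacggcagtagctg

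The next pair holds few CpG dinucleotides and the AP-1 letters at inner starts of KCNMA1, the large-conductance calcium-activated potassium channel (chr10:77350712-77351011, minus strand, 1 CpG), and of CREB5, a bZIP transcription factor (chr7:28685883-28686182, plus strand, 5 CpG).
KCNMA1: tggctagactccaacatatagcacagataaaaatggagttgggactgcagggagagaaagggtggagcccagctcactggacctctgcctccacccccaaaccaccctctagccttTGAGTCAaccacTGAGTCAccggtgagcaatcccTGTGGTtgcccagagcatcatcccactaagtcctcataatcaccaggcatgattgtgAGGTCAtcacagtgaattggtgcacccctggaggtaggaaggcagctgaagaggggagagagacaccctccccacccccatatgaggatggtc
CREB5: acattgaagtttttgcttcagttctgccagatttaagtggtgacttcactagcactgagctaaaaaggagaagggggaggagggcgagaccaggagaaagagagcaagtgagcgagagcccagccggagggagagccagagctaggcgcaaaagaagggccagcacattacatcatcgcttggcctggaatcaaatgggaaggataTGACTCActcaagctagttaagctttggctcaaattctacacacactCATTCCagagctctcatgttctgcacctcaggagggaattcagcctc

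Another pair shows the same type at starts of long non-coding RNAs (lncRNAs) that run against their host genes: LURAP1L-AS1 in LURAP1L (chr9:12814340-12814639, minus strand, 3 CpG) and LOC101928419 in ANKRD55 (chr5:56123851-56124150, plus strand, 3 CpG).
LURAP1L-AS1: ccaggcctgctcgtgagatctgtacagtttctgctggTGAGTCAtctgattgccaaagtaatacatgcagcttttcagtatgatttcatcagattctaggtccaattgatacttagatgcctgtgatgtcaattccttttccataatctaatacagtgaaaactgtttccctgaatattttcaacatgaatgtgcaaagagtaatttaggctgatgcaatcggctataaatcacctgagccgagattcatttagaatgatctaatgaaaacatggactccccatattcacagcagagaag
LOC101928419: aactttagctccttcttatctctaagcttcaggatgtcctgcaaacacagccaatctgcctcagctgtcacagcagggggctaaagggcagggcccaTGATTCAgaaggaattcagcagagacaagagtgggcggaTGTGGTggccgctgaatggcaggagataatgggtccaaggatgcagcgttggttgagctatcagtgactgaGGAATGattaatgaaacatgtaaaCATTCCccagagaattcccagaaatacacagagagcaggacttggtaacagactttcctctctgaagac

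The last pair comes from the gene lists described further on: the strongest window of any listed gene, in the actin-binding caldesmon gene CALD1 (chr7:134779384-134779683, plus strand, 7 CpG), and the window in TBL1XR1, a subunit of the corepressor complex of the T3 receptors (chr3:177197433-177197732, minus strand, 44 CpG).
CALD1: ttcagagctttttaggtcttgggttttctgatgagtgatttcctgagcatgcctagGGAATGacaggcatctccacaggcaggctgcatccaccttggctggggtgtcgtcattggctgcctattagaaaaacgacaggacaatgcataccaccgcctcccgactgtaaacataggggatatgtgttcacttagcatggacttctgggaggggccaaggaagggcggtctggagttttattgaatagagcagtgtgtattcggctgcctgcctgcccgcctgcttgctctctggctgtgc
TBL1XR1: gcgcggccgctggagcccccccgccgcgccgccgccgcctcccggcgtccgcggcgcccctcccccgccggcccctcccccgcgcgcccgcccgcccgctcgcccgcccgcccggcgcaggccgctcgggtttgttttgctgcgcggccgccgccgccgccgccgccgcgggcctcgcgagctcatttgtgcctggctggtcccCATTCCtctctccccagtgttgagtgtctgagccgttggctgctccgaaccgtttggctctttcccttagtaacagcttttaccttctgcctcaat

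Signals, scores and IDR values are the authors'. A peak's signal is the sum of its 2 replicate columns and is used here only to describe and rank peaks within the 24 h list. The MTHFD2L peak had a signal of 43.6, with 19.5 in the first replicate column and 24.1 in the second. The SNX12 peak had 35.9 (15.7 and 20.3) and the CALD1 peak 39.8 (17.4 and 22.5). At the KCNMA1 start the signal was 31.6 (14.7 and 17), and its printed window holds the AP-1 letters 2 times, beside 1 receptor core and 1 RUNX match. The CREB5 peak had 30.1 (14.7 and 15.5), LURAP1L-AS1 37.0 (17.4 and 19.5) and LOC101928419 31.5 (14.2 and 17.3). The TBL1XR1 peak was the weakest of the 8, at 17 (6.09 and 10.9). In each of these 8 peaks the second column was the higher, as it was in 62.8% of all the gene-body peaks.

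Summits gathered at transcript starts inside genes. The windows around starts cover 0.188% of the gene-body bases and held 4.13% of the peaks, a density of 389 per Mb (exact Poisson 95% interval 364 to 416; such intervals cover counting error only). Over 1 kb from every listed start the density was 16.5 per Mb (16.3 to 16.8), and 19941 peaks, 92.5% of the total, lay there. Most gene-body peaks thus lay away from any listed start. Peaks in start windows ranked higher in the 24 h list, at a median percentile of 64.9 by signal against 43.3 for those over 1 kb from a start.

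Of 8212 start windows within gene bodies, 12.4% held a summit of these peaks. The share was 15.9% (exact Clopper-Pearson 95% interval 14.9 to 16.9) of 4996 windows at inner starts of protein-coding genes and 6.93% (6.08 to 7.87) of 3216 windows at lncRNA starts. The protein-coding windows with a summit numbered 794, in 720 genes, and rested on 745 distinct peaks. Some windows overlap and share a peak. The intervals here and for the CpG classes and motifs below take each window as separate, so they can be too narrow. A 24 h peak shared with another list had its summit in 108 of the protein-coding windows, a 6 h peak in 88 and a vehicle peak in 9. These counts come from fewer peaks. Gene bodies held 1767 shared 24 h peaks, 3666 peaks of the 6 h list and 1671 of the vehicle list, against 21569 of the peaks described here. Relative to these numbers, shared 24 h peaks were not rarer at such starts. Among lncRNA starts on the strand opposite to the host gene, 7.49% of 2471 held a summit (6.48 to 8.60), and among those on the same strand 3.35% of 269 (1.54 to 6.26). The bin just before the start held most summits for both kinds of transcript.

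**Figure D1:**
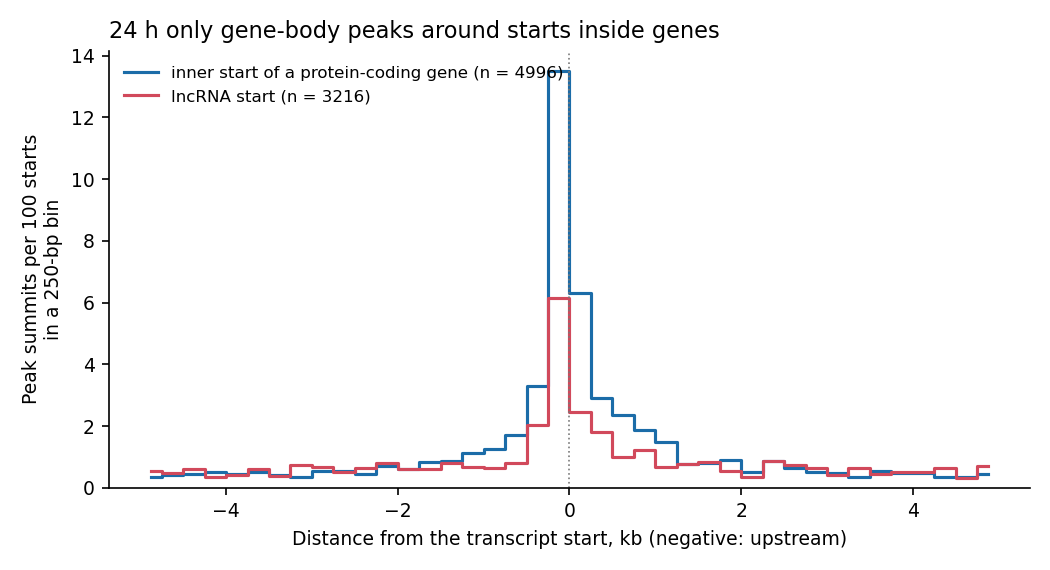
Summits of 24 h only gene-body peaks per 100 transcript starts (vertical axis) in 250-bp bins of distance from the start in kb (horizontal axis, negative upstream), for inner starts of protein-coding genes (blue, n = 4996) and lncRNA starts (red, n = 3216). In the bin just upstream of the start there were 13.5 summits per 100 protein-coding starts and 6.16 per 100 lncRNA starts.

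Start windows with a peak were richer in CpG dinucleotides. The median was 25 CpG per window at protein-coding inner starts with a summit of these peaks and 5 at those with no 24 h peak, and 19 against 4 at lncRNA starts. At starts with a shared 24 h summit the medians were 23 (108 windows) and 20.5 (32 windows). High CpG content was thus not particular to the peaks listed only at 24 h. Of protein-coding inner starts with 15 or more CpG, 29.6% held a summit (27.6 to 31.7), against 3.71% (2.55 to 5.19) of those with 0 to 2. For lncRNA starts the shares were 21.7% (18.4 to 25.3) and 1.55% (0.89 to 2.51). The intervals of the highest and lowest classes do not overlap in either kind.

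Below 10 CpG, the windows with a peak differed most from the others in the AP-1 letters, the site of FOS, JUN and related factors. Among protein-coding inner starts they stood in 51 of 144 windows with a summit, 35.4% (27.6 to 43.8), and in 11.1% (9.79 to 12.4) of 2224 with no 24 h peak. Among lncRNA starts they stood in 48 of 84, 57.1% (45.9 to 67.9), against 11.5% (10.2 to 12.9). In windows with 10 or more CpG the AP-1 shares were 5.54% against 4.70% at protein-coding starts and 6.47% against 4.03% at lncRNA starts, with overlapping intervals. The AP-1 difference was thus found at CpG-poor starts of both kinds. Windows with a shared 24 h summit were not split by CpG content. Over all CpG classes, AP-1 letters stood in 57 of 223 lncRNA windows with these peaks, 25.6%. They stood in 9 of 32 with a shared 24 h summit, 28.1%. At protein-coding inner starts they stood in 87 of 794 windows with these peaks. With a shared 24 h summit they stood in 8 of 108, 7.41%, a lower share. AP-1 letters at lncRNA starts were thus not particular to the peaks listed only at 24 h.

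The other motifs gave smaller differences below 10 CpG. TEAD letters stood in 29.2% (21.9 to 37.3) against 18.7% (17.1 to 20.3) of protein-coding windows and in 31.0% (21.3 to 42.0) against 21.1% (19.4 to 22.9) of lncRNA windows. RUNX letters stood in 23.6% against 18.5% and in 27.4% against 18.7%, with overlapping intervals. The receptor core stood in 11.8% (7.03 to 18.2) of protein-coding windows with a summit and 18.3% (16.7 to 19.9) of those without a 24 h peak; at lncRNA starts it stood in 25% (16.2 to 35.6) and 19.4% (17.8 to 21.1). In neither kind was the receptor core more frequent under peaks beyond counting error.

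At starts with 10 or more CpG the ETS letters differed. They stood in 28.5% (25 to 32.1) of protein-coding windows with a summit and 14.3% (12.2 to 16.5) of those with no 24 h peak, and in 34.5% (26.7 to 43.1) and 13.7% (10.8 to 17.1) of lncRNA windows. The ETS letters hold a CpG themselves, and windows of this class were not matched for CpG number. Within it, 29.6% of protein-coding windows with 15 or more CpG held a summit, against 13.2% of those with 10 to 14. For lncRNA windows the shares were 21.7% and 5.24%. The part of CpG number in the ETS difference was not tested. Without the CpG split, ETS letters stood in 23.9% of protein-coding windows with these peaks and 30.6% of those with a shared 24 h summit. At lncRNA starts the shares were 25.1% and 21.9%. Over all 34961 start windows of the RefSeq table, AP-1 letters stood in 7.68%, TEAD in 14%, the receptor core in 13.8%, RUNX in 13.1% and ETS in 17.3%. The AP-1 match nearest to the summit lay at a median of 30 bp from it in 99 CpG-poor windows with a match. The medians were 47.2 bp for TEAD, 57.5 bp for RUNX and 107 bp for the receptor core, and 56.5 bp for ETS in the CpG-rich windows.

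**Figure D2:**
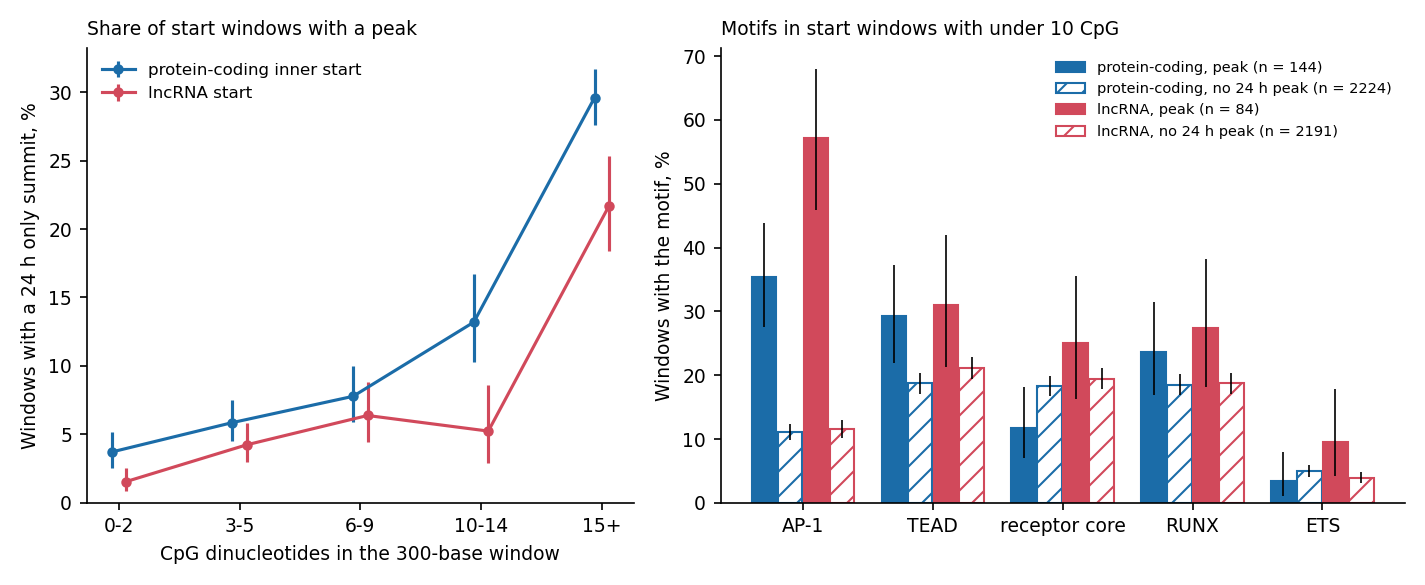
Left, percent of start windows that hold a summit of a 24 h only gene-body peak (vertical axis) by the number of CpG dinucleotides in the window (horizontal axis), for protein-coding inner starts and lncRNA starts. Right, percent of windows with under 10 CpG that hold each motif, with a summit (filled) or with no 24 h peak (hatched); lines are exact 95% intervals, and the AP-1 bars of windows with a peak stand at 35.4% and 57.1% against 11.1% and 11.5%.

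The gene-body peaks were narrower and weaker than the peaks at gene ends in the same list. Their median width was 607 bp (quartiles 390 and 914), against 893 bp for the 9757 peaks listed only at 24 h at gene ends and 613 bp for the 22169 intergenic ones. Their signal ran from 7.49 to 90.8 with a median of 11.7. The first replicate column had a median of 5.66 and the second 6.03. The median rank within the 24 h list was at percentile 44.3, against 67.9 at gene ends and 43.2 between genes. By width and rank they resembled the intergenic peaks. Across the peaks the replicate columns had a Spearman correlation of 0.621, a description over peaks of the same 2 libraries.

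By the IDR (irreproducible discovery rate, by which the authors' list keeps peaks that rank alike in replicates, here up to 0.05), 14453 of the peaks, 67.0%, were at or below 0.01, against 85.2% at gene ends. The 2 replicate summits lay a median of 43 bp apart, and at most 100 bp apart in 72.7%. Among all peaks listed only at 24 h, 44.7% of the weakest 10% by signal lay in gene bodies and 31.2% of the strongest 10%, while the share at gene ends went from 8.0% to 35.1%. Gene bodies therefore held a larger share of the weaker peaks.

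The strongest gene-body peak stood in KIAA0825 (chr5:94569381-94569537), with a signal of 90.8 (45.3 and 45.4) and a width of 157 bp. The next was in PDE3A, a cyclic nucleotide phosphodiesterase (chr12:20551426-20551569), with 62.3 (28.3 and 34) and a width of 144 bp. Both are narrow: only 1840 of the 21569 peaks were under 250 bp wide, and 40 of the strongest 1000. The third, in the myomesin gene MYOM2, had 59.2 (24.5 and 34.7) and a width of 804 bp. The other 7 of the strongest 10 stood in LMO7, IQUB, EDIL3, XIRP2, IL1RAP, MTHFD2L and ASB5, with signals from 45.8 down to 43.4. IL1RAP, the accessory chain of the interleukin-1 receptor, had 44.0 (18.8 and 25.2) at chr3:190566222-190566895. All 10 had replicate summits at most 100 bp apart.

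The peaks were spread along genes at 17.7 per Mb (17.5 to 17.9) over 1219 Mb of gene body, against 12.7 per Mb (12.5 to 12.9) for the peaks listed only at 24 h between genes. Gene bodies make up 40.3% of the bases between the first and last protein-coding boundaries of the chromosomes, and 40.3% (39.9 to 40.7) of the peaks listed only at 24 h lay there. Assembly gaps and other stretches where no peak can be called were not taken out of the bases in or between genes. These shares and densities carry that limit. In the vehicle list 24.5% of peaks (23.5 to 25.6) lay in gene bodies, in the 6 h list 30.3% (29.5 to 31.1) and among 24 h peaks shared with either 26.0% (24.9 to 27.0). When the 24 h list was shortened to its strongest peaks, as many as in the vehicle list, the share of its new peaks in gene bodies was 30.9%.

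Density was highest near boundaries. It was 25.4 per Mb at 1 to 5 kb from the nearest gene boundary, 20.1 at 5 to 20 kb, 17.7 at 20 to 100 kb and 11.6 beyond 100 kb, so that the nearest band held 2.18 times the density of the farthest. Among the peaks of the shortened list this ratio was 0.935, below 1. In the 2757 genes of at least 100 kb with a listed strand, the band 1 to 2 kb inside the gene start had 76.9 per Mb (66.6 to 88.4), and the matching band at the gene end 25 (19.1 to 32.1). From 2 to 5 kb the values were 16 on the start side and 20.3 on the end side. From 5 to 50 kb the start side had 17.6, 19.7 and 18.5 per Mb in successive bands and the end side 15.5, 17.8 and 17.4. The intervals of the sides were apart in the first band and overlapped in each later one. There were 1351 peaks between 1 and 2 kb from a boundary, just inside the limit of the rule.

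**Figure D3:**
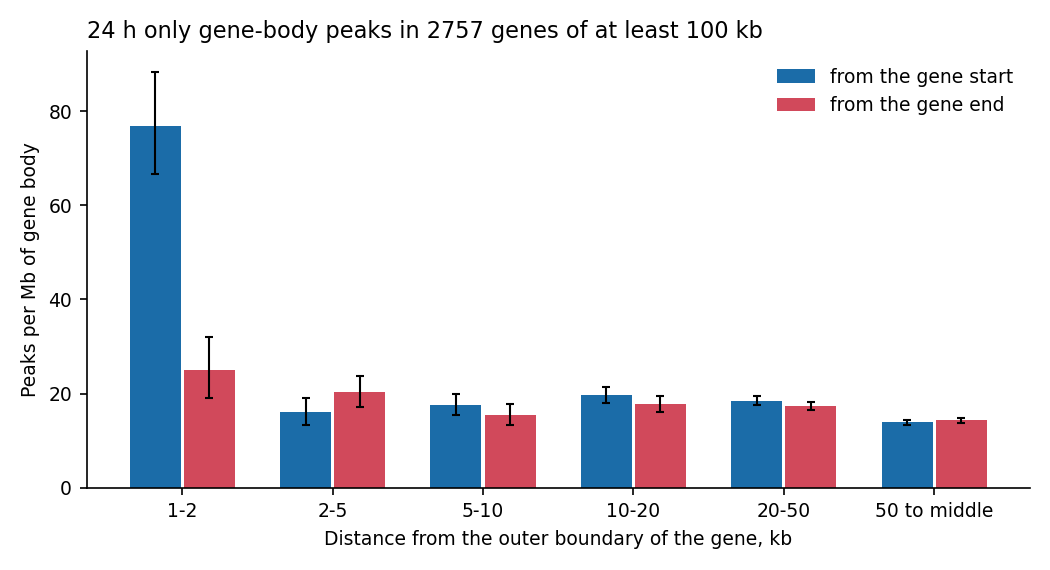
Density of 24 h only gene-body peaks per Mb (vertical axis) by distance in kb from the gene start (blue) or gene end (red) in 2757 genes of at least 100 kb; lines are exact Poisson 95% intervals. The band at 1 to 2 kb from the start, 76.9 per Mb, stands above all others, which lie between 13.9 and 25.

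At the limits of the rule, the peak just inside the overlap limit was in ZC3H18 (48.9% of the shorter peak overlapped, signal 10.1), and the one just outside in RYK (50%, signal 11.9). Just inside the boundary limit stood a peak in BLVRA with a signal of 9.61, and just outside one in AGXT2 with 16.2. Few cases were close: 57 of the peaks, 0.264%, overlapped a peak of another list at all. A 6 h peak lay within 5 kb of 522 of them, 2.42%, and a vehicle peak of 236, 1.09%, while another 24 h peak lay within 5 kb of 25.1%. The low first shares follow in part from the rule and from the shorter lists. Intergenic peaks listed only at 24 h had like shares of 3.14%, 1.5% and 22.3%, and those at gene ends 1.79%, 0.594% and 24.0%. By chromosome the density ran from 28.7 per Mb on chromosome 20 and 24.6 on chromosome 22 to 12.4 on chromosome 4 and 8.88 on X.

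The peaks stood in 7894 genes, 39.5% of the 19974 protein-coding genes, and in 42.3% of those with any base over 1 kb from a boundary. Of these host genes 3708 held 1 peak, 2938 held 2 to 4, 903 held 5 to 9 and 345 held 10 or more; the last group held 4975 of the peaks, 23.1%. In 5599 host genes neither a 6 h nor a vehicle peak lay in the gene body. A 6 h peak lay in the body of 1883 host genes and a vehicle peak in 1040. Among all 19974 protein-coding genes the numbers were 2537 and 1368, so most genes of any kind had neither. The number of peaks grew with length. As a description, the Spearman correlation was 0.583 across the 18680 genes with any base over 1 kb from a boundary, those without a peak included. Of genes with up to 20 kb of gene body 18% held a peak, and of those with over 400 kb 89.7%, while the density fell from 25.7 to 11.6 per Mb between the same classes.

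Genes with a 24 h peak at their start held fewer gene-body peaks per Mb, 16.5 (16.2 to 16.8), than genes without one, 20.1 (19.6 to 20.6). A 24 h peak stood at the start of 62.7% of the 14859 genes with a listed strand and gene-body bases. Away from listed starts the values were 15.4 and 17.6, a ratio of 0.876. By gene length the ratio went from 0.604 in the shortest class to 1.10 in the longest, so the order held in short genes and turned in the longest ones.

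The 20 genes with most of these peaks were long. PTPRN2, a tyrosine phosphatase-like protein of secretory vesicles, held 42, beside 18 shared 24 h peaks, 20 peaks at 6 h and 12 in vehicle. RANBP2, a nucleoporin whose RefSeq entry spans 1123 kb here, held 37, and KAZN, which codes for the junction-linked protein kazrin, also 37. CAMTA1, a calmodulin-binding transcription activator, held 35, and NAV2 and the cadherin gene CDH4 held 29 each. FRMD4A held 27, and PDE1C, a calmodulin-dependent phosphodiesterase, and GSE1 held 26 each. The genes KCNMA1, ATXN1, AOPEP, CACNA1C, TRAPPC9 and FSTL4 had 24 each, and PRKAG2, CAST, ASAP1, PTPRM and TENM2 had 23 each, ahead of PDE4D, PRKCE and NRXN3, also with 23, by summed signal. The RefSeq entry of CAST spans 813 kb here, and the counts of RANBP2 and CAST rest on these long spans. Against their lengths they ranged from 17.9 per Mb in TENM2, about the value of all gene bodies, to 72.1 in PRKAG2, the AMP-activated kinase subunit. Counted over peaks above the median of the first replicate column alone, 12 of these 20 genes were again among the top 20, led by RANBP2. With the second column 9 were, led by the calpain inhibitor gene CAST, a place that rests on its 813 kb span.

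The strongest peaks of these genes were of middling to high signal. TENM2, a synaptic adhesion protein, had one of 39.3 (17 and 22.3). In PRKAG2 the highest was 32.7 (16.2 and 16.5), within the span of CAST 31.9 (12.4 and 19.5) and in ASAP1 30.9 (13 and 18). In PTPRN2 it was 18.7 (9.10 and 9.58), and in GSE1 17.7 (8.47 and 9.23). The gene with most of these peaks thus had none of them above 18.7, its 18 shared 24 h peaks being left out here.

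Among genes with at least 50 kb of gene body, the 10 densest were shorter genes with at most 14 peaks each. TNIP1, an inhibitor of NF-kappaB signalling, had 8 peaks, 144 per Mb. PLA2G6, a phospholipase, had 9 (132 per Mb), the focal adhesion protein paxillin (PXN) 7 (131), lamin A/C (LMNA) 7 (126) and CFLAR, an inhibitor of caspase-8, 7 (120). The chaperone gene DNAJB6 had 9 (115), calpain 2 (CAPN2) 8 (110) and SMAD3, a TGF-beta signal carrier, 14 (110). MTCL2 had 9 (107 per Mb). Only LMNA among these 10 also had a 6 h peak in its body, and none had a vehicle one. Such peaks were rare in general, in 2537 and 1368 of the 19974 protein-coding genes. At the other end, the 5 longest genes with no such peak were DLG2, DPP10, IL1RAPL2, DCC and CNTN4, with 2173 kb in DLG2 and 959 kb in CNTN4. DLG2, IL1RAPL2, DCC and CNTN4 code for synaptic, neuronal adhesion and axon guidance proteins. DPP10 had 1 vehicle peak in its body.

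**Figure D4:**
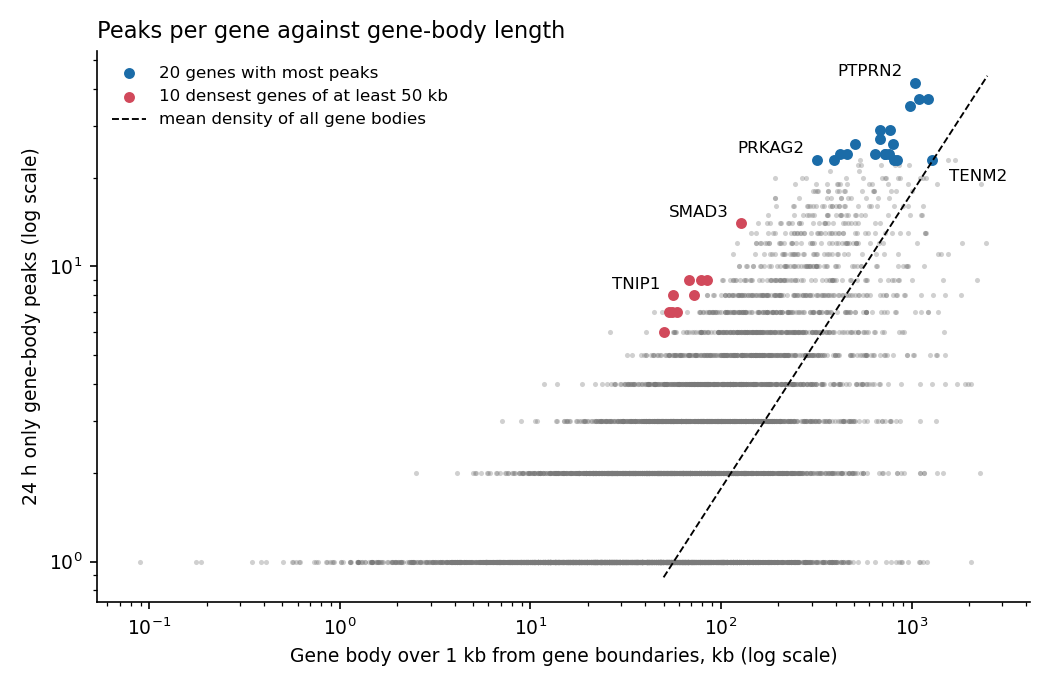
Number of 24 h only gene-body peaks (vertical axis, log scale) against gene-body length in kb (horizontal axis, log scale) for host genes, 1 point per gene, with the 20 genes with most peaks in blue and the 10 densest in red; genes without a peak are not drawn. The dashed line is the mean density, 17.7 per Mb; TENM2 lies close to it and the red points lie well above it.

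Genes of thyroid lineage and hormone synthesis held 47 of the peaks in 10 of 18 genes, with a median of 1 per gene; over all genes 39.5% held one and the median was 0. Their density was 26.8 per Mb (19.7 to 35.6), against 17.8 over all genes counted the same way. GLIS3, a zinc finger factor needed for thyroid development, held 17, the strongest at 33.1 (14.7 and 18.4). TG held 10, the strongest at 27.2 (12.7 and 14.5). The lineage factor PAX8 held 3, with 30.3 (14.5 and 15.7) in the highest, and the thyrotropin receptor gene TSHR 3, with 25.5 (13.2 and 12.3).

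Of the genes for making the hormone, the oxidase DUOX2 held 2 such peaks and DUOX1, the iodide carriers SLC5A5, SLC26A4 and SLC26A7 1 each. None stood in DIO1, DIO2, IYD, DUOXA1, DUOXA2, FOXE1, HHEX or NKX2-1, of which IYD, the iodotyrosine deiodinase, had a 24 h peak shared with 6 h. At 6 h TG had 3 gene-body peaks, and in vehicle it had none. TSHR, PAX8 and DUOX2 had no gene-body peak in either shorter list, like most protein-coding genes. Of the 18 genes of this list, 5 had a 6 h gene-body peak and 1 a vehicle one.

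Genes of thyroid hormone signalling held 52 peaks in 11 of 21 genes, with a median of 1 and 18.5 per Mb (13.8 to 24.3), 1.04 times the density of all genes; with replicate summits at most 100 bp apart it was 0.941 times. The receptor gene THRB held 13, the strongest at 33.4 (13.9 and 19.6), and no gene-body or gene-end peak in the other lists. Of the 21 genes only 1 had a 6 h gene-body peak and 2 a vehicle one. THRA held none and had no gene-end peak either. Among RXR partners RXRA held 7, the strongest at 12 (6.81 and 5.20), and RXRB and RXRG none. Among corepressor subunits TBL1X held 6, the strongest at 20.6 (8.97 and 11.6), TBL1XR1 2, the deacetylase HDAC3 1 and NCOR1 none. Among coactivators CREBBP held 4, NCOA2 3 and NCOA3 2, and NCOA1, MED1 and EP300 none. The hormone transporter SLC16A10 held 1, and SLCO1C1 none. DIO3 has no base over 1 kb from a gene boundary and could hold none by the rule. GPS2, with only 0.7 kb of such bases, held none either.

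Genes known to respond to thyroid hormone in other tissues held 45 peaks in 12 of 25 genes, at 24.3 per Mb (17.7 to 32.5), an interval that reaches the 17.8 of all genes. None of these peaks was in the shortened 24 h list. PPARGC1A, a coactivator of mitochondrial genes, and the myelin gene MBP held 12 each, the glucose transporter SLC2A1 4 and ACACA, a fatty acid synthesis enzyme, 3. The strongest peak of PPARGC1A was 22 (12.9 and 9.05) and that of MBP 15 (4.68 and 10.4).

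Lists of adhesion, junction and growth factor genes were denser than all genes, with intervals above 17.8 per Mb. The epithelial list had 34.8 per Mb (27.4 to 43.7) in 20 of 31 genes, with 20 peaks in the polarity gene PARD3 and 15 in TJP1, the tight junction protein ZO-1. Receptor tyrosine kinases had 28.8 (24.5 to 33.6) in 27 of 31 genes, with 20 in ALK, 19 in the insulin-like growth factor receptor IGF1R, 18 in ROR1 and 17 in EGFR. The strongest of these were 36.5 (16.8 and 19.6) in IGF1R and 35.3 (17.9 and 17.4) in ROR1. The Hippo and TEAD list had 28.8 (22.9 to 35.8) in 17 of 25 genes, with 12 each in PTPN14 and WWC1, upstream regulators of the pathway, and 8 in the factor gene TEAD1. Actin and focal adhesion genes had 27.6 (24.4 to 31.2) in 36 of 41 genes, with 20 in LPP, 18 in TNS3 and 17 in PALLD.

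Integrin and laminin genes had 28.6 per Mb (23.3 to 34.8) in 27 of 30 genes, with 10 peaks in ITGB5 and 9 in LAMA3. TGF-beta and BMP genes had 27.4 (22 to 33.6) in 24 of 30, with 20 in CRIM1, which binds BMPs, and 14 in SMAD3. The mesenchymal list had 28.1 (22.7 to 34.4) in 20 of 30, with 16 in ADAM12 and 14 in CALD1, so epithelial and mesenchymal markers were both above all genes. Collagens had 22.4 (18.2 to 27.2) in 23 of 29, with 14 each in COL4A2 and COL23A1. Protein kinase C and phosphodiesterase genes had 21.8 (18.7 to 25.3) in 20 of 22, with 26 in PDE1C and 23 each in PDE4D and PRKCE.

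In the next lists, transcription factor genes among them, the intervals reached the value of all genes. AP-1 and related bZIP genes had 25.1 per Mb (17 to 35.6) in 10 of 20 genes, with 9 peaks in BACH2, 6 in MAF, whose strongest was 34.8 (14.1 and 20.7), and 5 in ATF3. RUNX and ETS genes had 23.7 (17.7 to 31.2) in 16 of 21, with 8 in ETV6, 7 in ERG and 6 in RUNX1. Wnt genes had 24.0 (17.8 to 31.6) in 18 of 30, with 11 in TCF7L2, whose strongest was 33.9 (15.3 and 18.6). Subunits of the SWI/SNF remodelling complexes had 17.6 (12.6 to 23.9) in 15 of 28, with 10 in DPF3 and 8 in ARID1B. Housekeeping genes had 17.9 (8.20 to 34.1) in 6 of 24. With the 24 h list limited to an IDR of at most 0.01, the SWI/SNF genes had 1.09 times the density of all genes and the housekeeping genes 0.84 times, so neither had a settled side.

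Markers of other cell types were not denser than all genes. Neuronal genes had 6.00 per Mb (5.20 to 6.89) in 31 of 35 genes; their median gene body is 896 kb, and all genes over 400 kb had 11.6 per Mb. NRXN3 held 23, CNTNAP2 19, GRIN2A 17 and RBFOX3 17. Immune genes had 17.1 (12.4 to 23) in 14 of 32, with 18 in DOCK2 and 4 in PTPRC, which codes for CD45. Muscle genes had 11.8 (9.17 to 14.9) in 16 of 28, with 24 in CACNA1C and 9 each in RYR2 and DMD. CACNA1C alone held 723 kb of the 5.95 Mb of gene body in the muscle list, so the length limit holds here too. The part of gene length in these densities was not tested. A gene-body peak marks accessible DNA and not the cell type of the host gene's usual expression.

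**Figure D5:**
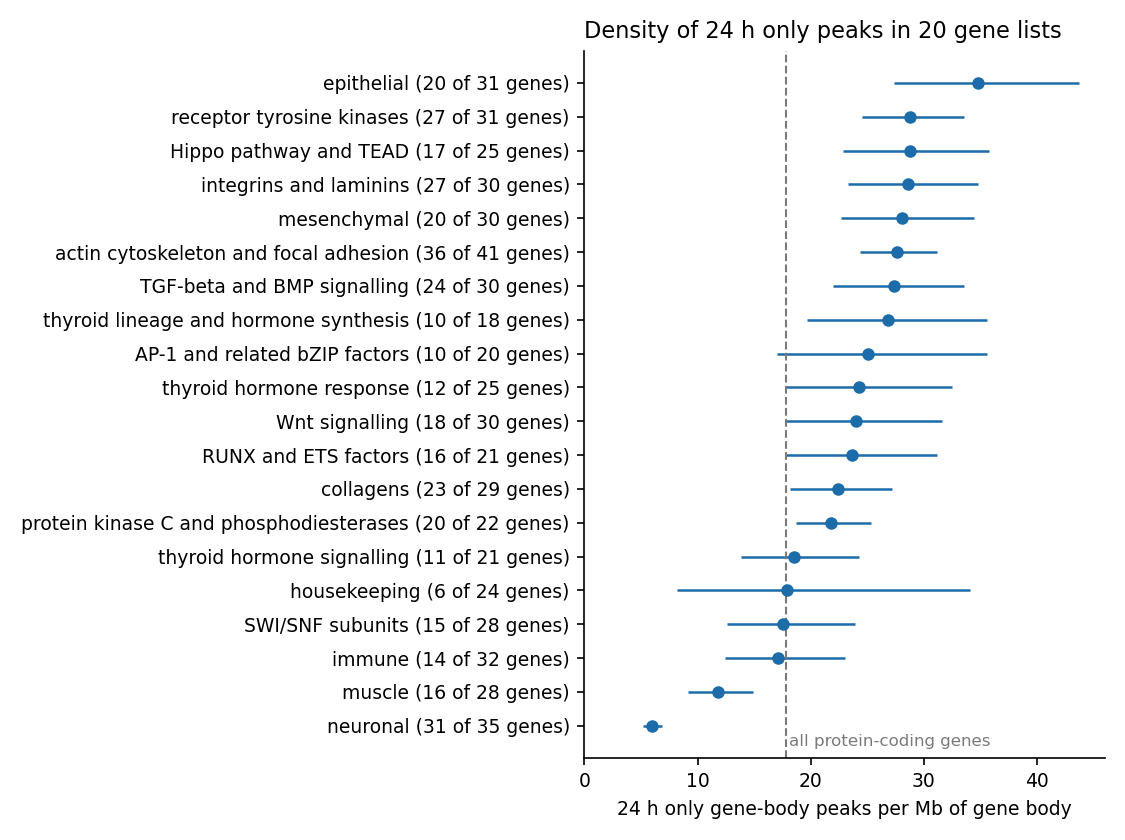
Density of 24 h only gene-body peaks per Mb (horizontal axis) in 20 gene lists, with exact Poisson 95% intervals and, in brackets, the genes with a peak out of those found; the dashed line is the value of all protein-coding genes, 17.8 per Mb. The epithelial list is highest at 34.8 and the neuronal list lowest at 6.00.

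The last group are microRNA genes, whose hairpins often lie within introns of protein-coding genes. Of 864 hairpins in gene bodies, 35 lay wholly within one of the peaks, 4.05% (2.84 to 5.59), while the peaks cover 1.24% of the gene-body bases. A shared 24 h peak covered 5, a 6 h peak 9 and a vehicle peak 2. These counts come from fewer peaks: gene bodies held 1767 shared 24 h, 3666 6 h and 1671 vehicle peaks. The peaks described here numbered 21569. Relative to these numbers, shared 24 h and 6 h peaks did not cover fewer hairpins. These 35 hairpins give 46 mature miRNAs with 46 different seeds, so no seed was shared among them. The 4 under the strongest peaks are printed from RefSeq, with the seed (bases 2 to 8) in capitals.
MIR3175: cGGGGAGAgaacgcagugacgu
MIR7845: aAGGGACAgggagggucgugg
MIR583: cAAAGAGGaaggucccauuac
MIR658: gGCGGAGGgaaguagguccguuggu

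The peak over MIR3175 in the chromatin remodeller gene CHD2 had a signal of 32.2 (13.6 and 18.5). MIR7845 in KLF7, a zinc finger factor, lay under a peak of 25.3 (11.2 and 14.1), MIR583 in the long RefSeq span of CAST under one of 24.9 (10.4 and 14.4) and MIR658 in ANKRD54 under one of 24.1 (11.2 and 13). Whether the DNA at these peaks is part of the miRNA gene's own promoter was not tested.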

How the data were processed

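ATAC-seq was run on 6 samples in 3 groups of 2, and the authors deposited 1 peak list per group, each called jointly from both replicates. Per the submitters' processing notes, CASAVA 1.7, Trim Galore, Bowtie2, MACS2, DiffBind and hg38 were used; not given in the sources used here: settings, the Tn5 read shift and the treatment of duplicates. The deposited signal is the sum of the 2 replicate columns, its normalisation is not stated, and it was used within the 24 h list only. The deposited score is the scaled IDR, and the authors also give its −log10; the largest IDR was 0.05. The replicate columns carry no sample number. The lists hold no read counts, so depth is unknown, and the numbers of peaks set the precision.

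The comparisons ran in Python 3.11.15 with scipy 1.17.1, pandas 2.3.3 and numpy 2.4.6, and matplotlib 3.10.9 drew the figures; the overlap code was checked on simulated lists and against bedtools 2.31.1. Genes, starts and sequences came from RefSeq tables of GRCh38.p14, the assembly of hg38 on these chromosomes; 15812 of the 19974 protein-coding genes matched a listed start and strand. Exon and intron positions and the sequence under peaks away from starts were not used here. Gene boundaries were those of protein-coding genes. Density is peaks per Mb of bases over 1 kb inside genes; a peak in several genes counts for each of them in values per gene.

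The text names the 20 genes with most peaks, the 10 densest with at least 50 kb, up to 4 genes of each list, the genes of the lists of thyroid lineage and hormone signalling, the hosts of the 10 strongest peaks and the 5 longest genes without one; a few genes that the rule names are not reported here. LMNA's 6 h peak, the highest peaks of 6 of the 20 genes and the miRNAs shown were picked after their values were seen, as were the split of windows by CpG content and the motif distances. The peaks and lists were chosen with earlier results of these data known. Alternatives covered the overlap, IDR, summit distance, list length, boundary and peak position.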

Additional observations from a re-analysis of the deposited data

How the results depend on the processing

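The limits are those of the lists: 1 joint list per group, no counts, no 24 h vehicle and a 24 h list far longer than the others; the part of its length in the counts was not tested. Of 47 counts and values recomputed, 32 stayed within their limits (1.5 times the count, or the interval). With the 24 h list cut to as many of its strongest peaks as the vehicle list holds, the members fell to 1574, the host genes to 1276, the share in gene bodies to 30.9%, the density to 1.29 per Mb, and the ratio of density near boundaries to that far from them from 2.18 to 0.935. The share was 38.9% with the 24 h list at an IDR of at most 0.01, 38.1% with all lists so limited, 41% with replicate summits at most 100 bp apart, 38.1% with boundaries of every gene type and 33.9% over 5 kb from boundaries. The density was 11.9 per Mb at an IDR of at most 0.01 and 12.9 with summits at most 100 bp apart, where the ratio was 1.99. Of the 20 genes with most peaks, 12 were kept by the first replicate column and 9 by the second. Of 80 list densities recomputed relative to all genes, 61 stayed within their limits and 6 changed side of all genes, in the hormone signalling, hormone response, SWI/SNF and housekeeping lists. The cause of these moves was not tested, apart from the fewer peaks that each stricter setting keeps. No paired analysis was possible because each list is a joint call of its replicates and the replicate columns carry no number; for the same reason no replicate could be left out. Motif searches around summits were not run, since no genome was used here.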
